A study of Mus musculus with 6 samples.

Results

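The genes described here encode the chaperones, folding enzymes, degradation factors and stress sensors of the endoplasmic reticulum (ER). These 35 genes were chosen by name, with earlier results of these data known, from the 41795 features of a mouse gene count table. All 35 were present, and all 35 passed the filter on low counts in RNA from mammary tumour cells labelled quiescent or activated cancer stem cells (CSCs). In activated CSCs 25 of them were higher, 5 were lower and 5 did not pass the test (edgeR's quasi-likelihood test, Benjamini-Hochberg adjusted p under 0.05). Of all 15223 genes tested, 24.1% were higher and 23.4% lower, 47.5% in either direction. The genes that rose most were chaperones, disulfide isomerases, the transcription factor gene Xbp1 and the degradation gene Derl3, while the sensor genes Atf6 and Ern1 were lower.

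The study compared quiescent with activated CSCs, 3 libraries of total RNA in each state. All 6 came from breast of FVB/N-Tg(MMTV-PyVT)634Mul/J animals, FVB/N mice in which the mouse mammary tumour virus promoter drives the polyoma virus middle T antigen in mammary epithelium, so both states carry the transgene. CSCs are tumour cells able to renew themselves and regrow a tumour, and the quiescent ones rest outside the cell cycle. The labels give neither the age of the animals, nor how cells were sorted or activated, nor whether libraries of a state came from separate animals, so a p-value here speaks to variation among these libraries alone, which may be technical.

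Proteins that enter the secretory pathway fold in the ER, where BiP (the product of Hspa5) and other chaperones hold them and disulfide isomerases join their cysteines. When unfolded protein builds up, the sensors IRE1 (Ern1), ATF6 (Atf6) and PERK (Eif2ak3) start the unfolded protein response: IRE1 splices the Xbp1 mRNA into the form that makes an active transcription factor, ATF6 is cut into one, and PERK slows translation. Proteins that cannot be folded are sent back to the cytosol and destroyed, which is called ER-associated degradation. Cells that secrete much protein, such as plasma cells and the alveolar cells of the lactating mammary gland, carry a large ER and depend on XBP1 to build it.

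A short sequence marks many of these genes. The ER stress response element (ERSE) has the letters CCAAT, then any 9 bases, then CCACG: the CCAAT part is bound by the general factor NF-Y and the CCACG part by ATF6 or XBP1. It was searched on both strands of RefSeq promoter windows (GRCm38.p6), which run from 250 bases before to 50 after an annotated start site. Windows were found for 30 of the 35 genes, and none for Atf6, Hyou1, Manf, Derl1 and Sec61a1. The exact ERSE occurred in 10 of these 30 genes (33.3%), with 11 copies because Hsp90b1 has a pair. Among the 11323 other tested genes with a window it occurred in 9 (0.0795%), and among all 32851 windows in 39 (0.119%). The element was first described in genes of this kind, Hspa5, Hsp90b1 and Calr among them, so its presence is no independent finding. The copies are shown because they are what these genes share in sequence. Each is written 5′ to 3′ from CCAAT to CCACG with those ends in capitals, and the position is that of the leftmost base in the gene's own direction, counted from the start site at 1.
Hspa5 (chr2:34772025-34772043, position -65, same strand as the gene): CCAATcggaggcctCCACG
Hsp90b1 (chr10:86705638-86705656, position -212, same strand): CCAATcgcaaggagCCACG
Hsp90b1 (chr10:86705533-86705551, position -107, opposite strand): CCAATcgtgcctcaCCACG
Dnajc3 (chr14:118937827-118937845, position -105, same strand): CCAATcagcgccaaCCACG
Pdia6 (chr12:17266491-17266509, position -98, same strand): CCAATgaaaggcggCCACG
Ero1lb (chr13:12565682-12565700, position -201, opposite strand): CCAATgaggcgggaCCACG
Creld2 (chr15:88819520-88819538, position -126, opposite strand): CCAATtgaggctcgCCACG
Calr (chr8:84847075-84847093, position -162, opposite strand): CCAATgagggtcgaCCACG
Canx (chr11:50325800-50325818, position -145, same strand): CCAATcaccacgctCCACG
Derl3 (chr10:75893242-75893260, position -156, opposite strand): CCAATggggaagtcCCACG
Syvn1 (chr19:6046532-6046550, position -44, same strand): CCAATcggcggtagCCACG

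All 11 copies lay upstream of the RefSeq start site of the window. The count table's model of Derl3 begins further upstream, so there the element falls inside the gene as counted. The ends are fixed by the search, and the 9 bases between the ends differed from gene to gene. Of the 10 genes with an ERSE 8 rose and 0 fell, while Canx and Syvn1 did not pass. Their median log2 fold change, activated over quiescent, was 0.73. Of the 20 genes with a window and no ERSE 15 rose and 3 fell, with a median of 0.2. Most genes with an ERSE were folding genes, while those without it held most of the degradation and entry genes. Element and role thus cannot be told apart here, and the difference was not tested. The 9 other tested genes with an ERSE held 4 higher and 0 lower (median 0.21). Of the 11314 other tested genes with a window and no ERSE, 2795 rose and 2723 fell (median -0.0033). The difference from the 9 was not tested. Of the 9, Esp18, Gm6566, Calr4 and Acacb had low quiescent means (0.81, 1.07, 1.29 and 1.49 CPM, defined below). Among these low genes Acacb alone rose. Alg12, also of the 9, shares the very bases of the Creld2 element and did not pass (log2 -0.04, adjusted p = 0.723). The second form of the element, ERSE-II (ATTGG, any 1 base, CCACG; 0.0365% of windows), was found in Dnajb11 and Herpud1, and both rose. The XBP1-preferred UPRE core (TGACGTGG, 0.676% of windows) was found in Sec24d alone. The ATF4-type element (TTGCATCA, 0.895% of windows) was found in Herpud1 alone. No searched pattern overlapped another in these windows, and a match is only a description of the letters.

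Whole windows are given for 4 genes, in the gene's direction with the ERSE ends in capitals (an element on the opposite strand reads from CGTGG to ATTGG): Hspa5 and Hsp90b1 as the most abundant chaperones of their group, Derl3 as the gene with the largest change, and Canx as a gene with the element and no detected change.
Hspa5 (chr2:34771840-34772139, plus strand): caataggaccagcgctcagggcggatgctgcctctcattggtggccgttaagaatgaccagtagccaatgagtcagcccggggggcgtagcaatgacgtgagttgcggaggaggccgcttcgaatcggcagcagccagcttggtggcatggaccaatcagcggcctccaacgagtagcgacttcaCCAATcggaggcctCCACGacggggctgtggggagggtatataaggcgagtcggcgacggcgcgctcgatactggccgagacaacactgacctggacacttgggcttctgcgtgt
Hsp90b1 (chr10:86705395-86705694, minus strand): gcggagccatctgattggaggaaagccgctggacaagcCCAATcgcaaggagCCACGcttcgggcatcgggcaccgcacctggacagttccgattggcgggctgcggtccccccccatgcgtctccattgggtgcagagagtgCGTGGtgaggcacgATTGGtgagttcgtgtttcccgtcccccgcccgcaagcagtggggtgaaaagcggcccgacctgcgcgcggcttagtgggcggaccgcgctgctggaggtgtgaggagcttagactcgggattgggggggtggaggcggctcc
Derl3 (chr10:75893148-75893447, plus strand): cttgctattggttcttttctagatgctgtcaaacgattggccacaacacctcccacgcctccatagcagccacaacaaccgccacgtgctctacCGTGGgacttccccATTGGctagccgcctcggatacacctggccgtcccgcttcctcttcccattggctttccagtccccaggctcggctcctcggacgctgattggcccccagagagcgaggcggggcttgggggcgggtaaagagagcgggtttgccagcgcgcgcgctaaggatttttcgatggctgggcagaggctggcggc
Canx (chr11:50325624-50325923, minus strand): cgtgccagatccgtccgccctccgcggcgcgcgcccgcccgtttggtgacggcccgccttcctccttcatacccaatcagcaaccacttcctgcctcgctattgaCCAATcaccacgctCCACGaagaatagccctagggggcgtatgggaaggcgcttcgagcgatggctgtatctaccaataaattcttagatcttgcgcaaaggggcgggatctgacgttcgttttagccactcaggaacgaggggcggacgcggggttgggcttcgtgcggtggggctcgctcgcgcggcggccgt

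**Figure D1:**
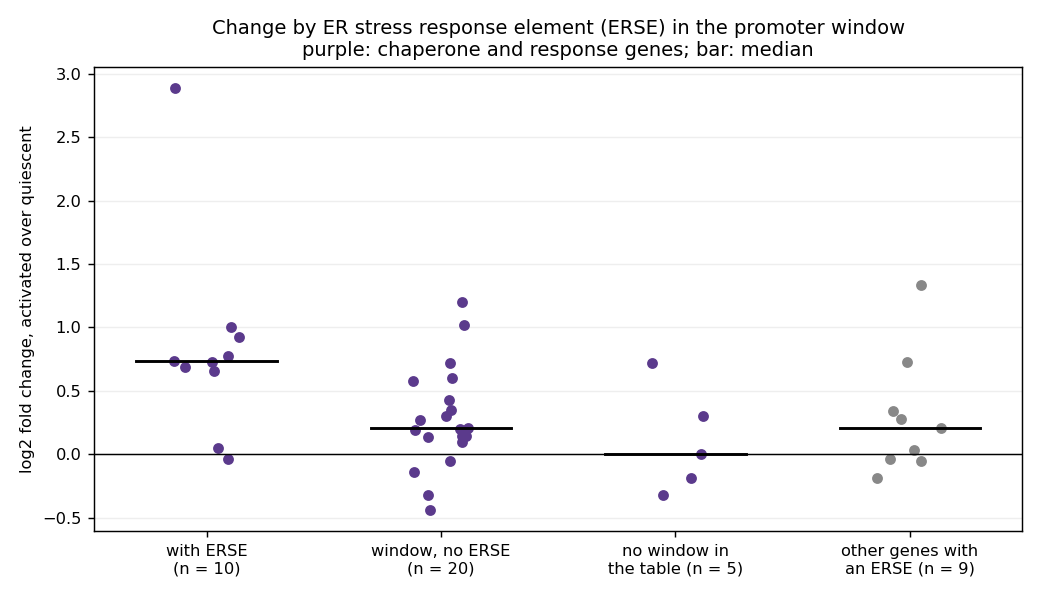
Log2 fold change (activated over quiescent, vertical axis) of each of the 35 genes, split by whether its promoter window holds an ERSE, beside the 9 other tested genes with an ERSE; bars are medians. The 10 genes with the element had a median of 0.73, the 20 without it 0.2, the 5 without a window are shown apart, and the other 9 genes had a median of 0.21.

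The libraries held 17785331 to 20510377 counts. Mki67, a marker of cycling cells, was at 49.7 ± 1.37 CPM (counts relative to the library total, after TMM scaling between libraries) in quiescent and 239 ± 19.4 CPM in activated libraries (SD, n = 3), and Setd4, named in the study's title, at 9.53 ± 0.643 and 9.7 ± 0.371 CPM. The 11 epithelial markers summed to 9671 to 10126 CPM in quiescent and 8331 to 8478 CPM in activated libraries, with 2 higher, 6 lower and 3 not past. Their levels ranged widely, from Krt8 at 2431 ± 78.01 and 2316 ± 69.47 CPM to Cldn7 at 7.74 ± 0.414 and 6.07 ± 0.838 CPM. Krt19 rose 2.7-fold and Krt14 1.24-fold, while Cldn4 fell 2.43-fold and Epcam 1.36-fold. Markers of other cells moved with the state. Fibroblast markers rose in 11 of 12 tested genes (summed 944 to 975 against 1675 to 1806 CPM) and myeloid markers in 7 of 14, with 1 lower (798 to 854 against 1176 to 1188 CPM). The largest part of the myeloid sum was Cd14, at 440 ± 8.78 against 701 ± 9.3 CPM. Cd68 was the lower one, and 6 did not pass, Ptprc and Adgre1 among them. Genes of alveolar secretory cells rose in 9 of 10 tested (summed 17214 to 18289 against 25636 to 27007 CPM), among 13 listed. The part of these markers in the results on ER genes was not tested. Of the 15 B and plasma cell markers measured, 7 were at 0 in every library, Ighm and Igkc among them, and the summed level of the list, which lay almost wholly in the epithelial gene Sdc1, was 663 to 697 against 557 to 591 CPM. Only 3 of these markers passed the filter on low counts: Prdm1 rose 2.17-fold from 5.47 ± 0.934 to 11.8 ± 0.999 CPM, Mzb1 fell 2.01-fold from 1.35 ± 0.289 CPM, and Sdc1 fell 1.21-fold. In bulk RNA a change in the number of cells of a type and a change in RNA per cell cannot be told apart.

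As a share of all counts, the 35 genes held 0.786 to 0.789% in quiescent and 1.1 to 1.12% in activated libraries. Their summed level was 7884, 7850 and 7908 CPM in the quiescent and 11154, 10979 and 10958 CPM in the activated libraries, so every activated library lay above every quiescent one, 1.4-fold on average. At a fold of at least 1.5 there were 13 higher and 0 lower, against 11.1% and 6.83% of all genes. The groups did not overlap for 25 genes on the higher side (27.9% of all genes) and 6 on the lower side (28%), against 55.9% of all genes in either direction. The median log2 fold change was 0.3 for the 35 genes and -0.0032 for all genes.

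**Figure D2:**
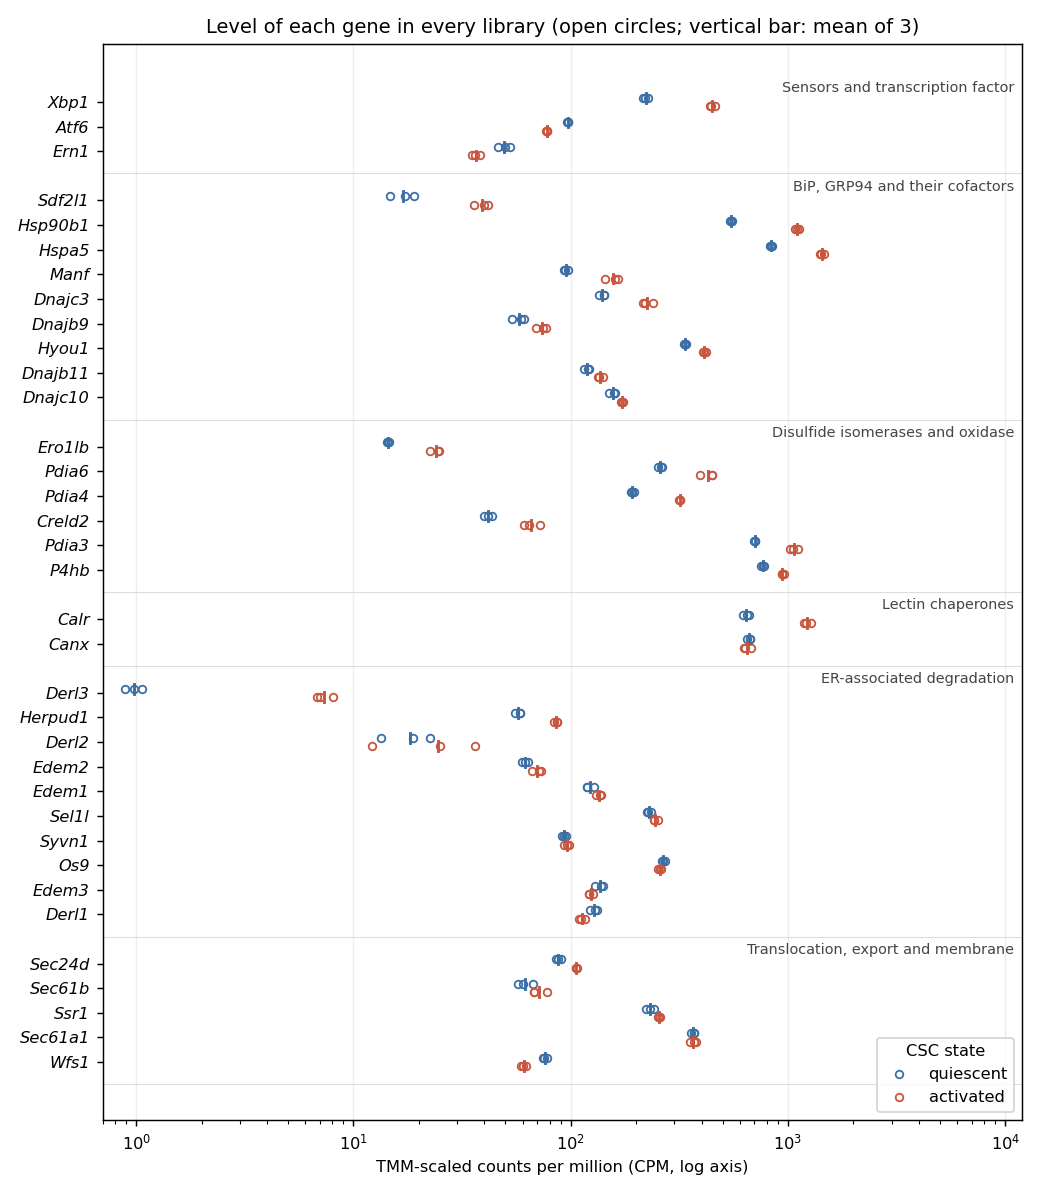
CPM of each of the 35 genes (log axis) in the 3 quiescent and 3 activated libraries, ordered by role; open circles are libraries and vertical bars their mean. Levels ran from 0.892 CPM for Derl3 in quiescent to 1465 CPM for Hspa5 in activated libraries, and libraries of a state lay close together except for Derl2.

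Among the sensors and their transcription factor the direction split. Xbp1 (NCBI gene 22433, GRCm38 chr11:5520641-5525993) encodes the factor that IRE1 activates. It was at 228, 216 and 220 CPM in quiescent and 438, 444 and 462 CPM in activated libraries. The states were far apart relative to their spread, and the rise was 2.02-fold (log2 1.02, SE 0.04, adjusted p = 1.1e-12). Ern1 (chr11:106397620-106487796), which encodes IRE1 alpha, the enzyme that splices Xbp1, was at 46.2, 52.7 and 49.7 CPM against 38.2, 36.3 and 35 CPM. It fell 1.36-fold (log2 -0.44, SE 0.06, adjusted p = 1.5e-05), with no overlap between the states. Atf6 (chr1:170704457-170867787) was at 95.8, 97 and 97.5 CPM against 77.7, 77.1 and 77.9 CPM and fell 1.247-fold (log2 -0.32, SE 0.04, adjusted p = 1.3e-05). All 3 activated libraries lay below all 3 quiescent ones. Gene counts do not separate spliced from unspliced Xbp1 or whole from cut ATF6, so they show the amount of these mRNAs and not the activity of the sensors.

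All 9 listed genes of BiP, GRP94 and their cofactors rose, with log2 fold changes from 0.14 to 1.2 (median 0.69). Other ER folding genes, described below, did not all rise: of 30 tested, 9 rose and 4 fell. Dnajc1 and Sdf2 were among those that fell (log2 -0.18 and -0.24), and Sil1 did not pass (adjusted p = 0.812). Hspa5 (chr2:34772090-34776529), which encodes BiP, was at 846, 823 and 833 CPM in quiescent and 1465, 1414 and 1404 CPM in activated libraries. The rise of 1.71-fold (log2 0.78, SE 0.04, adjusted p = 3e-11) was many times the spread within a state. Hsp90b1 (chr10:86690841-86705444) encodes GRP94, the ER form of HSP90. Its level went from 552, 544 and 546 CPM to 1128, 1095 and 1076 CPM, 2.01-fold (log2 1.01, SE 0.04, adjusted p = 8.7e-13), again with no overlap.

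Sdf2l1 (chr16:17130138-17132383), which encodes a partner of the BiP cochaperones, had the largest rise of this group on far fewer counts. It was at 14.7, 17.2 and 18.9 CPM against 35.9, 41.5 and 39.8 CPM, 2.3-fold (log2 1.2, SE 0.09, adjusted p = 1.6e-08). Its lowest activated library was still well above its highest quiescent one. Manf, which binds BiP and can be secreted, rose 1.65-fold and Dnajc3, a cochaperone of BiP, 1.61-fold. The other cofactors rose less: Dnajb9 1.28-fold, the exchange factor gene Hyou1 1.23-fold, Dnajb11 1.15-fold and the reductase gene Dnajc10 1.1-fold. The groups did not overlap for any of the 9, all on the higher side, where 27.9% of all genes did not overlap either.

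The 6 listed genes of disulfide isomerases and of an oxidase that recharges them all rose, with a median log2 fold change of 0.69. Ero1lb (the ER oxidase ERO1 beta) was at 14.2, 14.5 and 14.4 CPM against 24.9, 22.5 and 24.4 CPM, 1.67-fold (log2 0.74, SE 0.08, adjusted p = 8.3e-07). Ero1l, the other oxidase gene, is listed with the other folding enzymes and had more counts. It was at 151 ± 6.25 against 157 ± 6.64 CPM and did not pass (log2 0.06, adjusted p = 0.304). Pdia6 was at 261, 252 and 262 CPM against 392, 446 and 446 CPM, 1.66-fold (log2 0.73, SE 0.05, adjusted p = 3.4e-09). Its first activated library was lower than the other two and still far above the quiescent libraries. Pdia4 was at 192, 190 and 195 CPM against 316, 317 and 320 CPM, 1.65-fold (log2 0.72, SE 0.04, adjusted p = 2.9e-11), with libraries of a state nearly equal. Creld2, whose product has isomerase activity, rose 1.58-fold and Pdia3, the isomerase that works with the lectin chaperones, 1.52-fold. P4hb, which encodes the main protein disulfide isomerase, rose 1.24-fold, the least of the 6.

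The lectin chaperones, which hold glycoproteins by their trimmed sugars, parted. Calr, the soluble calreticulin (chr8:84842088-84846931), was at 618, 647 and 659 CPM against 1275, 1181 and 1206 CPM, 1.9-fold (log2 0.93, SE 0.04, adjusted p = 1.1e-11). Canx, the membrane-bound calnexin (chr11:50293957-50325673), was at 647, 672 and 672 CPM against 679, 634 and 626 CPM, with overlapping states (log2 -0.04, SE 0.04, adjusted p = 0.47). The count ratio of Calr to Canx within a library was 0.955, 0.963 and 0.981 in quiescent and 1.88, 1.86 and 1.93 in activated libraries. That ratio needs no scaling between libraries. Its states did not overlap, but the pair was chosen with the values known, so this is no added support. Both genes hold an ERSE in their windows.

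**Figure D3:**
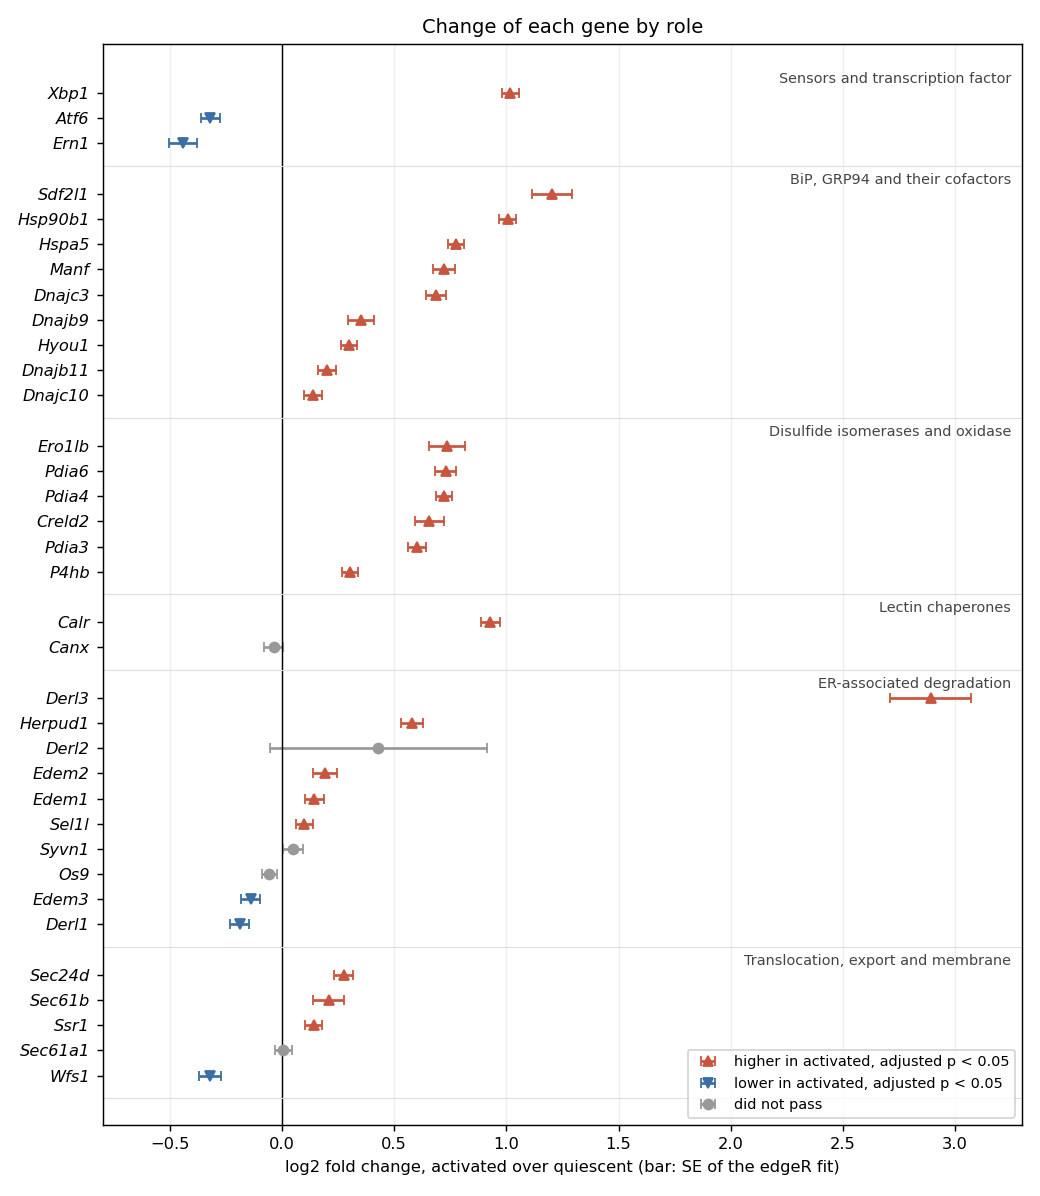
Log2 fold change of each gene (activated over quiescent, bars are SE of the fit), grouped by role and coloured by the call at an adjusted p of 0.05. All 9 genes of the BiP group and all 6 disulfide genes rose, the degradation genes held 5 higher and 2 lower, and Derl3 stood far to the right at 2.89.

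Genes of ER-associated degradation were mixed, with 5 higher, 2 lower and 3 not past of 10, and a median log2 fold change of 0.12. Derl3 (chr10:75893072-75895941), a derlin of the exit channel, was low in quiescent libraries at 1.07, 0.973 and 0.892 CPM, which is 19, 18 and 17 counts. In activated libraries it was at 7.04, 8.04 and 6.78 CPM, which is 126, 147 and 139 counts. The rise of 7.42-fold (log2 2.89, SE 0.18, adjusted p = 7.7e-10) was the largest among the 35 genes. Derl1, its more abundant paralog, was at 130, 123 and 132 CPM against 109, 112 and 117 CPM and fell 1.14-fold (log2 -0.19, SE 0.04, adjusted p = 0.0018). The count ratio of Derl3 to Derl1 went from 0.00763 ± 0.000777 to 0.0649 ± 0.00681 (SD, n = 3), so Derl3 was still the minor form.

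The remaining derlin gene, Derl2, could not be placed. It was at 13.4, 22.6 and 18.7 CPM in quiescent and 25.2, 12.1 and 36.2 CPM in activated libraries, a swing of 2.99-fold within the activated state (log2 0.43, SE 0.49, adjusted p = 0.53). Its locus overlaps Mis12 on the other strand, and without a stated counting strand their reads cannot be told apart.

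Herpud1, which ties the derlins to the ubiquitin ligase, was at 58.4, 55.4 and 58.2 CPM against 86.9, 84 and 86.1 CPM, 1.49-fold (log2 0.58, SE 0.05, adjusted p = 3.7e-08). Its states were tight and well apart. The gene of the ligase itself did not pass. Syvn1, the ligase HRD1, was at 92.8, 90.9 and 94.8 CPM against 93, 96.4 and 98.5 CPM (adjusted p = 0.41), and it overlaps Mrpl49 on the other strand. Sel1l, its adaptor, rose 1.07-fold (adjusted p = 0.0358). That call ended with DESeq2 (adjusted p = 0.0602), with no filter on low counts (0.0598) and when a library was left out: quiescent replicate 1 (0.163), quiescent replicate 3 (0.0906) or activated replicate 2 (0.0665). Os9, a lectin that brings glycoproteins to the ligase, was at 266, 264 and 271 CPM against 260, 258 and 253 CPM (adjusted p = 0.2).

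The EDEM proteins trim mannose from glycoproteins bound for degradation, and their genes differed in direction. Edem2 was at 59.6, 63.7 and 61.5 CPM against 66.4, 73.2 and 71.3 CPM, 1.14-fold (log2 0.19, SE 0.05, adjusted p = 0.0075). Edem1 was at 128, 119 and 119 CPM against 136, 131 and 138 CPM, 1.105-fold (adjusted p = 0.0102). Edem3 was at 140, 138 and 130 CPM against 122, 127 and 122 CPM and fell 1.1-fold (log2 -0.14, SE 0.04, adjusted p = 0.011). All 3 changes are small, although the states did not overlap. The Edem1 call ended without quiescent replicate 2 (adjusted p = 0.0562) or activated replicate 3 (0.0503). The Edem3 call was lost at an adjusted p of 0.0728 when quiescent replicate 1 was dropped, 0.0605 when quiescent replicate 2 was and 0.0597 when activated replicate 3 was.

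Genes of entry into and exit from the ER gave 3 higher, 1 lower and 1 not past, with a median log2 fold change of 0.14. Sec61a1, the pore of the translocon, was at 368, 358 and 370 CPM against 356, 377 and 368 CPM (log2 0.01, SE 0.04, adjusted p = 0.92). Sec61b, a smaller subunit of the same channel, was at 60.6, 57.1 and 67 CPM against 77.9, 67.7 and 67.8 CPM, 1.16-fold (log2 0.21, SE 0.07, adjusted p = 0.023). The states nearly meet, and the call ended without quiescent replicate 1 (adjusted p = 0.085) or quiescent replicate 2 (0.102). Sec24d, which picks cargo for the COPII coat of transport vesicles, was at 89.9, 87.5 and 85.5 CPM against 105.5, 106.5 and 105.8 CPM, 1.21-fold (log2 0.27, SE 0.04, adjusted p = 6.1e-05). Ssr1, a translocon-associated subunit, rose 1.1-fold. Wfs1, the wolframin gene of the ER membrane, was at 77.5, 74.8 and 75.5 CPM against 59.2, 60.4 and 62.5 CPM and fell (log2 -0.32, SE 0.05, adjusted p = 3.9e-05).

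Levels between genes were compared as CPM per kilobase of gene length. In quiescent libraries Calr (330 ± 10.8 CPM per kb) and Hspa5 (319 ± 4.34) led and did not differ beyond their spread. P4hb (301 ± 4.68), Pdia3 (265.5 ± 0.388), Hsp90b1 (198 ± 1.48) and Canx (155 ± 3.35) followed. In activated libraries Calr (628 ± 25.05) and Hspa5 (546 ± 12.5) still led. Pdia3 (403 ± 17.4), Hsp90b1 (398.5 ± 9.53) and P4hb (371 ± 3.98) came next, the first of these not differing from the second beyond its spread, and Canx (151 ± 6.64) went from rank 6 to rank 8 behind Pdia6 and Xbp1. These 6 genes held 52.3 to 59.1% of the summed CPM of the 35 over all libraries. At the other end lay Ero1lb, Derl2 and Derl3, all under 5 CPM per kb in both states.

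Summed by role, the BiP group was 1.63-fold higher (2325, 2294 and 2285 CPM in quiescent against 3799, 3730 and 3699 CPM in activated libraries). The sum of the 3 sensor and factor genes was 1.53-fold higher (370, 366 and 367 CPM against 554, 557 and 575 CPM), although 2 of them fell and only Xbp1 rose. The disulfide genes were 1.44-fold higher and the lectin chaperones 1.43-fold. The degradation genes, at 1113, 1114 and 1114 CPM against 1156, 1144 and 1170 CPM, were 1.04-fold higher, and the entry and exit genes 1.05-fold. Relative to the summed degradation genes and per length, the BiP group was at a log2 ratio of 1.59 ± 0.0154 in quiescent and 2.24 ± 0.0263 in activated libraries. The sensor group went from -1.07 ± 0.0197 to -0.333 ± 0.0236, a difference of 0.737 against 0.656 for the BiP group, an order that turned without length scaling (0.557 against 0.647). The disulfide genes went from 1.6 ± 0.00893 to 2.04 ± 0.017 and the lectin chaperones from 0.904 ± 0.0418 to 1.5 ± 0.0624. The entry and exit genes were at 0.211 ± 0.0423 and 0.22 ± 0.0392, within their spread. Such sums are dominated by their most abundant genes and were given no test.

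Ratios between related genes were compared within libraries for 11 pairs, chosen with the values known. In 10 of the 11 the states did not overlap. Each of these gave p = 0.1 in an exact two-sided permutation test, the smallest that 3 against 3 can give (0.11 adjusted over the 11). Because of how the pairs were chosen, neither the separation nor these p-values count as support, and no share over other pairs was computed. Xbp1 went from 2.29 ± 0.0807 to 5.77 ± 0.146 counts per count of Atf6 and from 4.49 ± 0.418 to 12.3 ± 0.873 per count of Ern1. Sdf2l1 went from 0.217 ± 0.026 to 0.588 ± 0.0442 per count of its paralog Sdf2, and Hspa5 from 9.52 ± 0.258 to 17.5 ± 0.943 per count of Hspa13, another ER member of the HSP70 family. Ero1lb went from 0.0953 ± 0.00429 to 0.153 ± 0.0109 per count of Ero1l, the other oxidase gene. Pdia4 went from 0.252 ± 0.000258 to 0.337 ± 0.00423 per count of P4hb. The pair that overlapped was Sec61a1 over Sec61b (exact permutation p = 0.2).

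**Figure D4:**
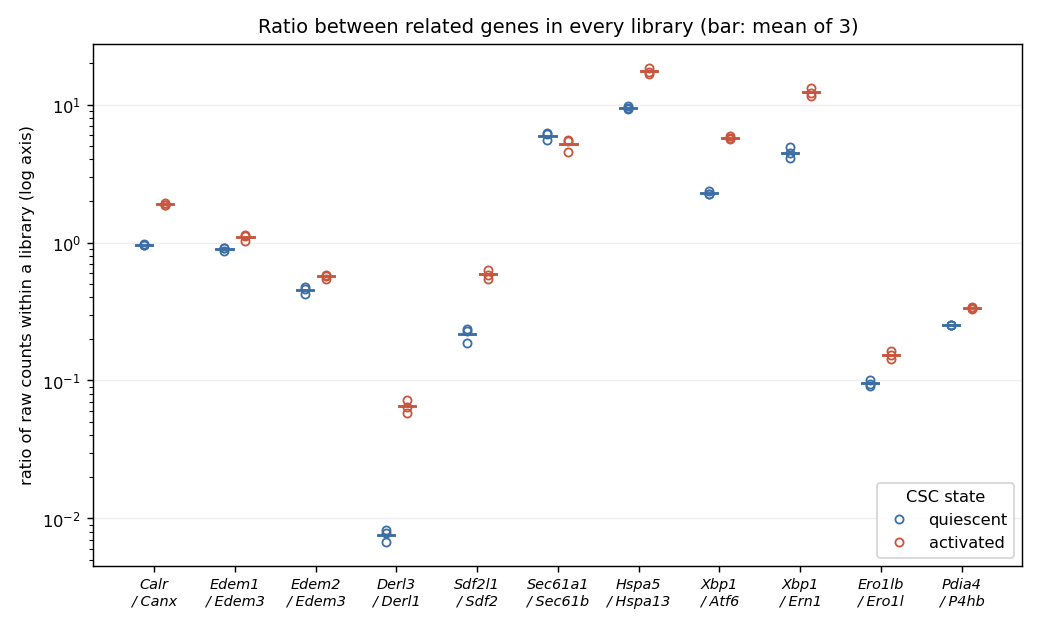
Ratio of raw counts between 11 pairs of related genes in every library (log axis), with bars at the mean of 3 libraries. The activated libraries lie above the quiescent ones in 10 pairs, by 8.5-fold for Derl3 over Derl1, and overlap them for Sec61a1 over Sec61b.

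Other genes of the secretory pathway were taken from 7 lists, with 164 tested genes in all. Of these 33 rose and 49 fell, with a median log2 fold change of -0.04, against 25 and 5 of the 35 genes above. This difference was not tested. Among all genes tested 24.1% were higher and 23.4% lower. The counts of the COPII, translocon and other stress transducer lists below were near these shares, so they are no result about those lists. The other ER-associated degradation genes gave 0 higher and 17 lower of 37 (median -0.15). Rhbdd1, a rhomboid protease, fell 1.55-fold from 116 ± 4.53 to 74.8 ± 2.56 CPM. Over all settings run, 14 to 19 genes of this list were called.

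The other folding enzymes gave 9 higher and 4 lower of 30 (median 0.05), with 17 not past. Prdx4, an ER peroxiredoxin that uses peroxide to make disulfides, rose 2.06-fold from 21.4 ± 0.547 to 44.1 ± 3.43 CPM, while Qsox1, a sulfhydryl oxidase, fell 1.2-fold. The other translocon and signal peptidase genes gave 6 higher and 8 lower of 26, with Spcs2 at 1.2-fold higher and Srprb 1.28-fold lower. Genes of the oligosaccharyl transferase and of glucose trimming gave 6 higher and 3 lower of 18. Man1a, a mannosidase, fell 1.85-fold and Prkcsh, a subunit of glucosidase II, fell 1.46-fold. The other COPII and cargo receptor genes gave 7 higher and 7 lower of 28, with the cargo receptor gene Surf4 rising 1.48-fold and Sec16b rising 2.83-fold from 2.5 ± 0.62 CPM.

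The PERK arm raises the factor ATF4, which also answers to amino acid shortage. The list of this arm and of ATF4 targets held more genes lower than higher. Of 14 tested genes 2 rose and 7 fell (median log2 -0.16). Eif2ak3, which encodes PERK itself, was at 66.4, 61.4 and 63.2 CPM against 70.6, 65.7 and 63.6 CPM, with overlapping states (adjusted p = 0.36). Asns, asparagine synthetase, fell 2.17-fold from 102 ± 2.64 to 47.2 ± 0.702 CPM (adjusted p = 6.3e-12), and Sesn2 fell 1.93-fold from 65.2 ± 2.7 to 33.8 ± 2.03 CPM (adjusted p = 6.9e-10). The 2 that rose were the stress-induced factor genes Atf3, 1.59-fold from 79.5 ± 1.39 to 127 ± 8.08 CPM, and Cebpb, 1.53-fold from 298 ± 19.2 to 455 ± 18.1 CPM. Eif2ak3, Atf3, Cebpb, Chac1, Trib3, Atf4 and Ddit3 are named after their values were seen. Chac1 had the largest fall of the list, 2.87-fold from 16.9 ± 1.59 to 5.88 ± 0.24 CPM, and Trib3 fell 1.76-fold. Atf4 fell 1.13-fold and Ddit3, the death-linked factor CHOP, fell 1.24-fold. Among other stress transducers and their proteases 3 rose and 3 fell of 12. Creb3l2, a relative of ATF6, rose 1.55-fold, and Nfe2l1, a factor held in the ER membrane, fell 1.31-fold.

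**Figure D5:**
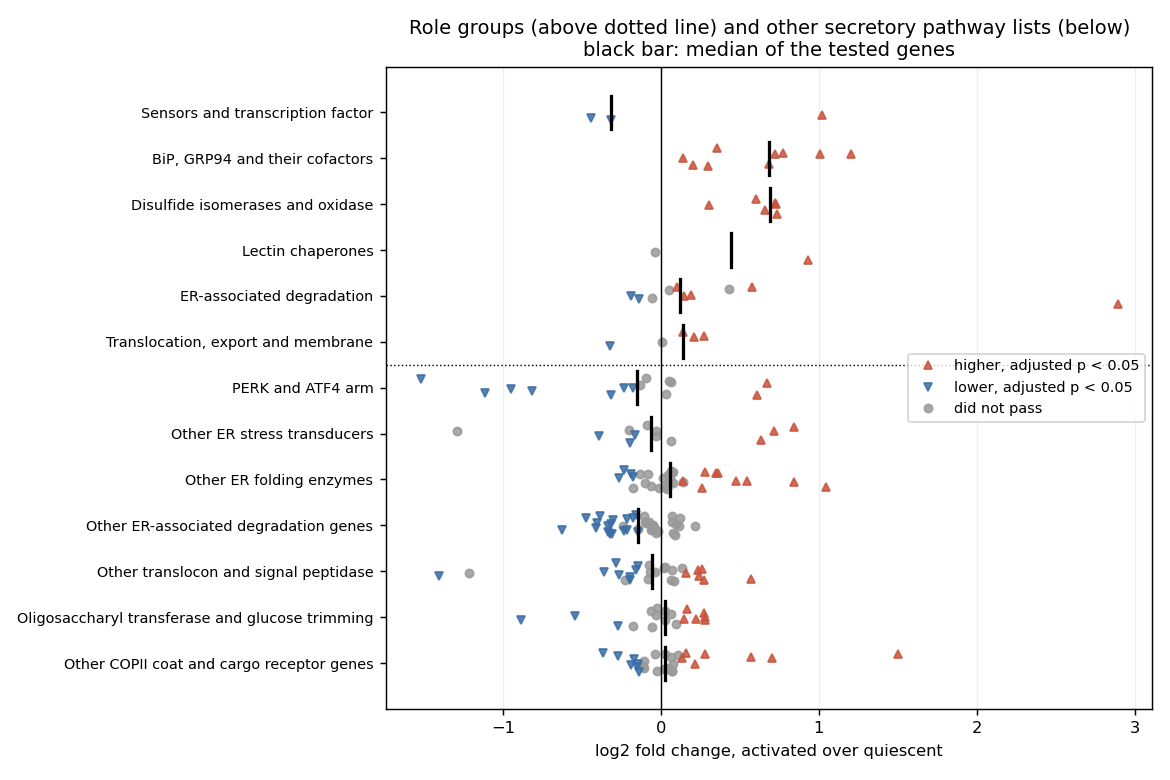
Log2 fold change of every tested gene in the 6 role groups (above the dotted line) and in 7 lists of other secretory pathway genes (below it), with medians as black bars. The BiP and disulfide groups lie wholly to the right, with medians of 0.69, while the medians of the other lists run from -0.16 to 0.05.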

How the data were processed

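RNA-seq of 6 libraries was deposited as 1 table of raw counts per gene, with gene lengths and coordinates on GRCm38. Per the submitters' processing notes, featureCounts 1.5.0-p3, HISAT2 2.0.5 and StringTie 1.3.3b were used, with no role stated; the sources used here do not give the strand setting. The deposited counts were filtered with filterByExpr, scaled by TMM and tested with edgeR 4.0.16 (quasi-likelihood, robust, no replicate block; limma 3.58.1, R 4.3.3), with Benjamini-Hochberg adjustment over all 15223 genes. All 35 ER genes passed the filter. CPM values are TMM-scaled, and an SD is over 3 libraries.

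The 35 members, their 6 role groups, the 7 pathway lists and the 5 marker lists were chosen with earlier results of these data known. Per-library values were given for the sensors, for up to 3 members of each other role group with the largest absolute log2 fold change past the threshold, and for every member that fell; some further members are shown that way after their values were seen. From each pathway list up to 2 genes with the smallest adjusted p were named, with Setd4 and Mki67 as label checks; 1 gene this rule names is not reported here. A planned test of ratios between role groups was not given, because a score over chosen members has no valid p. The fit was also tested on simulated data with 200 of 15223 genes changed. It recovered 36% of 1.25-fold changes, 56% of 1.5-fold, 80% of 2-fold and 96% of 4-fold ones. Of 152 calls there 18 were false, a share above the nominal threshold. Far more genes, 7236, were called in the real data, so that share need not carry over. The fit was repeated with DESeq2 1.42.0 and limma-voom, under RLE, upper-quartile and library-total scaling, other low-count filters, a stricter threshold and a replicate block, and with every library dropped in turn. A run without 196 genes of unstable counts was added after seeing the data.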

Additional observations from a re-analysis of the deposited data

How the results depend on the processing

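The count of 25 higher and 5 lower among the 35 genes was the same with RLE, upper-quartile and library-total scaling, with limma-voom, and without genes of unstable counts, an alternative chosen after seeing the data. It was 24 and 5 with DESeq2, with no filter and with a minimum mean of 5 CPM (which removes Derl3), and 22 and 4 at an adjusted p under 0.01. Leaving out 1 library gave 23 to 25 higher and 4 to 5 lower. At an adjusted p under 0.01 the degradation group held 4 calls, against 7. With no length scaling the log2 ratios over the degradation genes differed between states by 0.473 for the disulfide genes, 0.462 for the lectin chaperones and 0.557 for the sensors, against 0.442, 0.596 and 0.737. The sign turned for Sec61a1, which passed nowhere, at -0.00797 without quiescent replicate 2 and -0.0126 without activated replicate 2; over libraries left out it ran from -0.0126 to 0.0328. It turned likewise for Setd4, at -0.0242 without quiescent replicate 1 and -0.000153 without activated replicate 1, with a range of -0.0242 to 0.0748. Why these values moved was not tested. Same-numbered libraries showed little joint deviation (correlations 0.00782, -0.0298 and 0.0438). Whether samples with the same number share an origin is not stated by the labels and was not tested. With the replicate block 7042 genes were called against 7236, and 24 and 5 of the 35. Sel1l was the call that ended (adjusted p = 0.0535). Low counts limit the precision for Derl3 and Sdf2l1.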
